A study of Homo sapiens with 5 samples.

Results

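C4A and C4B are the pair of near-identical genes that encode complement component C4. They were chosen by measured values, because both were among the genes with the largest increase in hypertrophic medium, and they make up 2 of the 2694 genes with values in all 5 libraries. Their difference between the media is therefore given below as a description with no test. The question was how the copies, together and apart, differed between TC28a2 cells kept in growth medium and in hypertrophic medium, and how the other complement genes and the genes beside them on chromosome 6 behaved in the same libraries.

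Complement is a cascade of plasma proteins that tags surfaces and immune complexes for clearance. In its classical and lectin arms, an activated protease cleaves C4, and the larger fragment binds covalently to a nearby surface through an exposed thioester bond, where it joins a fragment of C2 to form the enzyme that cleaves C3. The C4A protein is known to bind amino groups more readily and the C4B protein hydroxyl groups. The liver is the main source of plasma C4, but macrophages, fibroblasts and chondrocytes also make complement proteins, and complement activation has been described in osteoarthritic joints.

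TC28a2 is an immortalized human chondrocyte line, and the labels give costal cartilage as its tissue. Growth medium (GM, n = 2) held 10% fetal bovine serum. Hypertrophic medium (HM, n = 3) held 1% serum and 1% of an insulin, transferrin and selenium supplement, together with the growth factors BMP-2 (100 ng/ml) and GDF-5 (10 ng/ml), the thyroid hormone triiodothyronine (T3, 1 µM), the glucocorticoid dexamethasone (10 nM), β-glycerophosphate (10 mM) and ascorbic acid (50 µg/ml), and total RNA was taken on day 5. The media differed in serum and in every one of these agents at once, so the part of each cannot be told apart.

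Each value is a log2 level as the authors deposited it, and the depth behind it is unknown. The median over the listed genes was 8.17 and 8.18 in GM replicates 1 and 2, and 8.62, 8.52 and 8.43 in HM replicates 1, 2 and 3. No listed gene differed between the media by less than 0.21, and 2667 of the 2694 passed limma at an adjusted p under 0.05, so the list holds genes that differ and offers no background of unchanged genes. The list holds 1707 genes with a higher and 987 with a lower mean in HM. These counts equal those of the transcripts that the paper reports as up- and downregulated between the media. The list is therefore read as that set, selected on the same 5 libraries. Each adjusted p below thus relates a difference to the spread of the replicates and is no independent evidence that the gene differs. The shares of higher and lower genes describe this selected list. The smallest difference went from 0.21 in the 674 genes with the lowest mean level to 0.55 in the 674 genes with the highest. The kind of log2 transformation is not given in the sources used here, so differences are reported on the deposited scale and not as folds of RNA. The scale may shrink differences at low levels, so a difference of a gene with a low level, such as TNXA, CYP21A2 or PRRT1, cannot be set directly against that of C4A or C4B, and the summed C4 level rests on reading the values as plain log2. Centring each library on its median lowered every difference by 0.35, and the share of higher genes among those that passed went from 63.1% to 46.1%. The list holds more higher than lower genes, so the median and quantiles of each library depend on which genes were listed. Median centring and quantile normalization can thus take away part of a difference between the media. A call lost under them does not show that the difference is unsound.

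In the GENCODE annotation of GRCh37, C4A lies on the plus strand of chr6:31949834-31970458 and C4B on the plus strand of chr6:31982572-32003195, in the class III region of the major histocompatibility complex, and their starts are 32738 bases apart. The annotated transcripts compared here are each 5427 bases long in 41 exons. They differ at 13 bases, all of them coding, which leaves 99.76% identity. The differences lie between transcript positions 2770 and 3907, in exons 21, 25, 26, 28 and 29, and they fall in 11 codons, 10 of which encode another residue in the other copy.

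The differing bases that lie closest together are shown because reads can be told apart only where they cover such a base. The first stretch is in exon 26, at chr6:31963838-31963888 in C4A and chr6:31996576-31996626 in C4B, and holds codons 1120 to 1125 counted from the start codon, the site known to set the binding preference of each protein. Capitals mark the 5 bases that differ, C3410T, G3413C, T3421A, G3424C and C3426T, with the C4A base first and positions counted from the 5′ end of the transcript.
C4A exon 26: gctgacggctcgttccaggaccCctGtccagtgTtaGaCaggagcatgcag
C4B exon 26: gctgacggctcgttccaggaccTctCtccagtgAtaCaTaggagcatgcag

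The second stretch is in exon 28, at chr6:31964294-31964353 in C4A and chr6:31997032-31997091 in C4B, and is part of the region known to carry the Rodgers and Chido blood group antigens of the C4 proteins. Capitals mark the 4 differing bases, G3666C, T3671C, T3680G and C3681G. Codon 1205, which holds the first of these, encodes the same residue in both copies.
C4A exon 28: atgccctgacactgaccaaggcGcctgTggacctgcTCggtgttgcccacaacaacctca
C4B exon 28: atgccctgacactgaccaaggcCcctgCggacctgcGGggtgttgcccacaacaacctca

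The remaining differences are G2770A in exon 21, A3269G in exon 25, A3578G in exon 28 and T3907G in exon 29. Of the windows of 50 bases along the transcript, 93.9% are identical in C4A and C4B. The share is 91.0% for 75 bases, 88.4% for 100 bases and 83.7% for 150 bases. The read length and the treatment of reads that match both genes are not given in the sources used here, so the separate values of the copies are uncertain, and the value of both together is the safer measure.

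**Figure D1:**
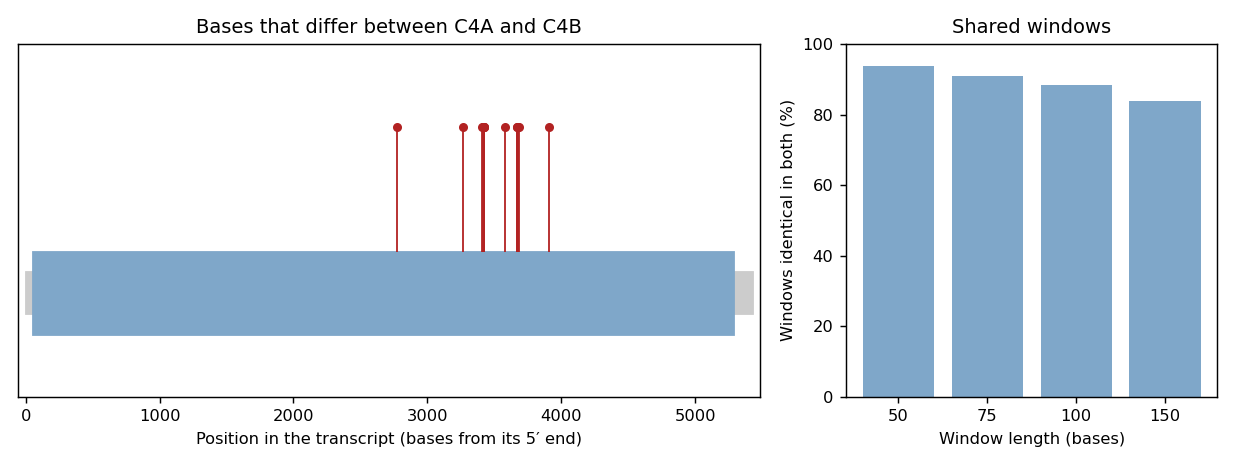
The left panel draws the C4A transcript to scale (x axis, bases from its 5′ end; thick bar, coding part) with a line at each of the 13 bases that differ from C4B, all between positions 2770 and 3907. The right panel gives the percent of windows of each length that are identical in both transcripts, from 93.9% at 50 bases to 83.7% at 150 bases.

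C4A had values of 10.10 and 10.00 in GM replicates 1 and 2, and of 13.20, 12.26 and 12.40 in HM replicates 1, 2 and 3. C4B had values of 9.96 and 9.87 in GM and of 13.10, 12.14 and 12.30 in HM. Both copies were higher in every HM library than in either GM library, with gaps of 2.15 for C4A and 2.19 for C4B between the lowest HM and the highest GM library. All HM libraries were likewise above both GM libraries for 62.5% of the listed genes and below both for 36.5%, so this feature is shared with most of the list. HM replicate 1 was the highest library for both copies, above the GM mean by 3.15 for C4A and by 3.19 for C4B.

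The mean C4A level was 10.05 ± 0.073 (SD, n = 2) in GM and 12.62 ± 0.51 (SD, n = 3) in HM, a log2 difference of 2.57. The mean C4B level was 9.91 ± 0.065 (SD, n = 2) in GM and 12.51 ± 0.51 (SD, n = 3) in HM, a log2 difference of 2.60. Among the listed genes, C4B ranked 2 and C4A ranked 4 by the size of the increase, which is what led to their choice. After median centring the differences were 2.22 for C4A and 2.25 for C4B. In RNA from whole cultures, more cells that make a transcript and more of it per cell cannot be told apart, just as fewer cells and less RNA per cell cannot.

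With the copies joined, as the log2 of their summed linear values, the level was 11.03 and 10.93 in the GM libraries and 14.15, 13.20 and 13.35 in HM replicates 1, 2 and 3. The HM libraries spanned 0.95, and the lowest of them was 2.17 above the highest GM library. The mean was 10.98 ± 0.069 (SD, n = 2) in GM and 13.57 ± 0.51 (SD, n = 3) in HM, a log2 difference of 2.58. Without HM replicate 1, the difference of both together was 2.29.

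**Figure D2:**
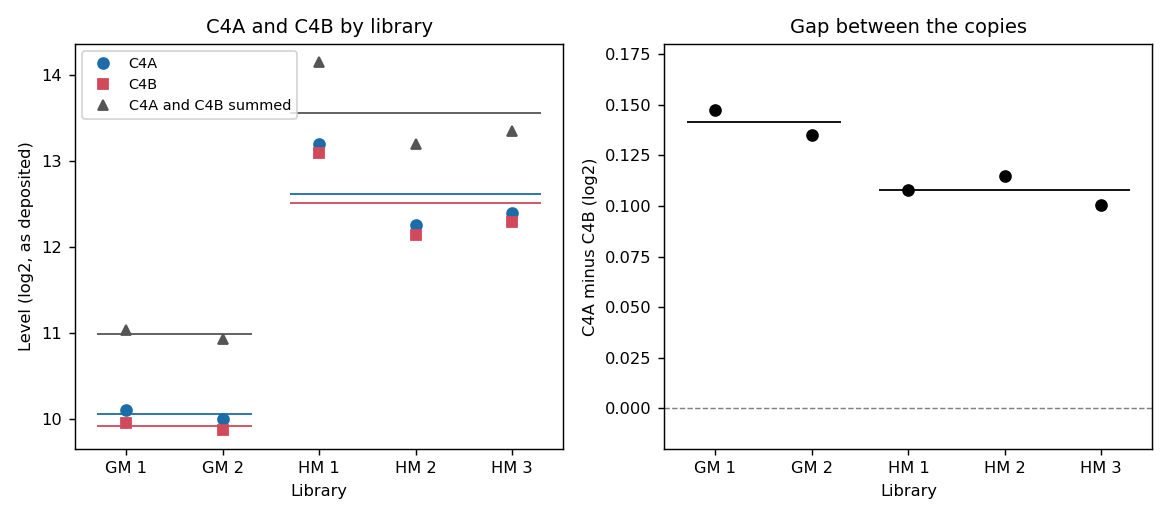
The left panel shows the log2 level (y axis) of C4A, of C4B and of both summed in each library (x axis), with lines at the group means, and each HM point lies above all GM points of its series. The right panel shows C4A minus C4B on the log2 scale, which lies between 0.10 and 0.15 in the 5 libraries.

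Within a library, C4A was above C4B in 5 of 5 libraries. The log2 gap was 0.15 and 0.14 in GM replicates 1 and 2, and 0.11, 0.11 and 0.10 in HM replicates 1, 2 and 3. The mean gap was 0.12 ± 0.020 (SD, n = 5), with p = 0.063 in an exact two-sided sign-flip permutation test. This is the smallest p that 5 libraries allow, so the test could not fall under 0.05 and adds nothing to the count of 5 of 5. The annotated transcripts have equal length, so this comparison of levels is also one per length.

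The gap was slightly narrower in HM, at 0.11 ± 0.0071 (SD, n = 3), than in GM, at 0.14 ± 0.0088 (SD, n = 2), and each HM library had a narrower gap than either GM library. This change of -0.034 belongs to the contrast that chose the genes and was not tested. It is small beside the difference of either copy between the media, and since most windows of the transcripts are identical, how much of the parallel course of C4A and C4B comes from shared reads was not tested. How many C4A and C4B copies TC28a2 cells carry was not analysed here.

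The C4 genes also overlap other annotated genes. The first 765 bases of C4A overlap STK19 on the same strand, and 2706 bases at the 3′ end of each copy overlap an antisense gene, C4A-AS1 or C4B-AS1. STK19, C4A-AS1 and C4B-AS1 were not analysed here. The libraries came from a stranded kit, but whether the counting used the strand is not given in the sources used here, so reads of the C4 genes and of their antisense partners cannot be told apart in these values.

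Of the other complement genes, 12 of 59 on the fixed lists had values, and they moved in both directions. Of these 12, 8 were higher in HM at an adjusted p under 0.05 (limma), as were 62.5% of all listed genes, and 4 were lower, as were 36.5%. A difference over 1 was passed upward by 6 of them, against 11.8% of all listed genes, and downward by 1, against 7.05%. After median centring, 3 passed upward by over 1, against 4.45% of all listed genes, and 4 downward, against 21%, so the balance of large changes depends on the scaling. The median difference of the 12 genes was 1.03, and that of all listed genes was 0.56. No direction of these 12 genes changed under median centring or quantile normalization.

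Of 14 initiating components on the list, 4 had values, and 3 of these, C1S, C1R and C1RL, were higher in HM, against 62.5% of all listed genes. C1S, the protease of the C1 complex that cleaves C4, had values of 11.55 and 11.52 in GM and of 12.80, 12.52 and 12.58 in HM. It rose by 1.10 (standard error 0.12, adjusted p = 0.000125, limma), and all 3 HM libraries were above both GM libraries, as for 62.5% of all listed genes. C1R, which activates C1S, had values of 12.64 and 12.53 in GM and of 13.91, 13.71 and 13.61 in HM, and rose by 1.16 (standard error 0.12). C1RL, a C1R-like protease, rose by 1.23 (standard error 0.15). COLEC10, a collectin of the lectin pathway, had means of 12.17 ± 0.0020 (SD, n = 2) in GM and 11.34 ± 0.19 (SD, n = 3) in HM and fell by 0.83. The C1Q genes, MBL2, the ficolins and the MASP genes were not analysed here.

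C3, the protein that the enzyme built on C4 cleaves, had values of 8.23 and 8.53 in GM and of 10.66, 10.88 and 9.63 in HM. It rose by 2.02 (standard error 0.32, adjusted p = 0.000589, limma), with every HM library above both GM libraries, as for 62.5% of all listed genes. Its order among the HM libraries was not that of C4. For C3, HM replicate 2 was the highest and HM replicate 3 the lowest, whereas C4A and C4B were highest in replicate 1 and lowest in replicate 2. C5, the next component to be cleaved, rose by 0.97 (standard error 0.15), from a mean of 6.93 to 7.89. CFB, the alternative pathway counterpart of C2, rose by 0.75 (standard error 0.16), from 6.32 to 7.07. C2 itself, the partner of C4, was not analysed here.

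Among the components that join C5b in the membrane attack complex, C7 had values of 7.32 and 7.35 in GM and of 9.89, 9.58 and 10.03 in HM. It rose by 2.50 (standard error 0.17, adjusted p = 1.02e-05, limma), with every HM library above both GM libraries, as for 62.5% of all listed genes. The rise was close in size to the C4 difference, but without the high value in HM replicate 1. C6, C9 and the C8 genes were not analysed here.

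Among 22 regulators on the list, 3 had values. CFI, the protease that cuts C4b and C3b into inactive fragments, had values of 7.05 and 7.15 in GM and of 9.02, 9.04 and 9.03 in HM, and rose by 1.93 (standard error 0.14, adjusted p = 1.56e-05, limma). Its HM libraries were almost equal, with an SD of 0.010, while those of C4A had an SD of 0.51. CD55, the membrane protein that speeds the decay of the enzymes that cleave C3, had values of 10.08 and 10.09 in GM and of 8.42, 8.92 and 8.83 in HM. It fell by 1.36 (standard error 0.17, adjusted p = 0.000209 by limma) and was lowest in HM replicate 1, the library in which C4A and C4B were highest.

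CLU, or clusterin, an inhibitor of the terminal complex, fell by 0.85 (standard error 0.14). C1QBP, a mitochondrial protein that also binds C1q and the only gene of 10 on the receptor list with values, fell by 0.68 (standard error 0.12). The C4-binding proteins C4BPA and C4BPB, as well as CD46, CD59, CR1 and SERPING1, were not analysed here.

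**Figure D3:**
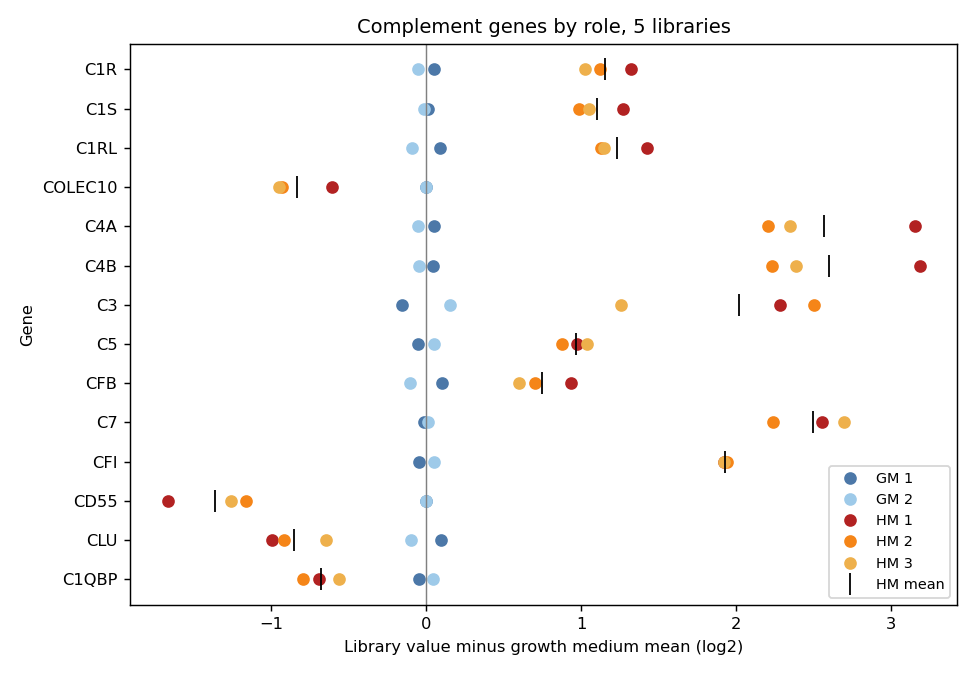
Each row is a complement gene, ordered by role from the initiating proteases to the C1q-binding protein, and each point is a library value minus the GM mean of that gene (x axis, log2; black tick, HM mean). C4A and C4B have the points farthest to the right, above 3 in HM replicate 1, whereas COLEC10, CD55, CLU and C1QBP lie to the left of 0 in HM.

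C4, C3 and C5 belong with α2-macroglobulin to a family of large proteins, most of which carry an internal thioester. Of 9 genes on that list, C4A, C4B, C3, C5 and CPAMD8 had values. CPAMD8, the only one of the 5 outside complement, had means of 5.16 ± 0.039 (SD, n = 2) in GM and 5.81 ± 0.33 (SD, n = 3) in HM. Its difference of 0.65 passed the test as deposited (adjusted p = 0.00839, limma), but at 0.30 it no longer did after median centring. C4 is made as a single chain that is cut by furin-like proteases and sulfated on tyrosine. Of the 6 genes listed for these steps, 0 had values, and they were not analysed here.

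The class III region was examined because C4A and C4B sit in it. Beside the C4 genes, 8 of 26 listed genes of the region had values, and all 8 were higher in HM at an adjusted p under 0.05 (limma) as deposited, as were 62.5% of all listed genes, although TNXA turned to -0.049 after median centring. Their median difference was 0.64, near the 0.56 of all listed genes, and no one of the 8 reached 1. The C4 genes had differences of 2.57 and 2.60, and the gap between them and these neighbours was not tested.

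The neighbour with the largest difference was CYP21A2, the steroid 21-hydroxylase gene that follows C4B. It had values of 5.07 and 4.72 in GM and of 5.96, 5.60 and 5.65 in HM, and a difference of 0.84 (standard error 0.16, adjusted p = 0.00128, limma). The smallest difference, 0.30 (standard error 0.10), was that of TNXA, the tenascin-X pseudogene between the copies, and this is the one that turned to -0.049. TNXB, the tenascin-X gene, differed by 0.60 (standard error 0.18). CYP21A2 and TNXB overlap by 492 bases on opposite strands and each has a near-identical pseudogene beside C4A, and CFB overlaps C2 and a gene model that reads through both, so their values are uncertain as well.

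Farther along, NOTCH4, a Notch receptor, differed by 0.69, AGER, the receptor for advanced glycation end products, by 0.67, AGPAT1, an acyltransferase of phospholipid synthesis, by 0.61 and PRRT1, a membrane protein gene, by 0.43. Quantile normalization gave 0.22 for AGPAT1 and 0.43 for AGER, which no longer passed (limma), and 0.36 for NOTCH4, which did. The PRRT1 difference was 0.66 without GM replicate 1 and 0.21 without GM replicate 2. After median centring, 2 of the 8 neighbours were higher and passed the test, CFB at 0.40 and CYP21A2 at 0.49, as did 31.4% of all listed genes. Without GM replicate 2, 4 of the 8 passed, against 50.9% of all listed genes that were higher. Without HM replicate 1 or HM replicate 2, 7 passed, against 60.3% and 58.4%. C4A and C4B remained at 2.22 and 2.25 after median centring.

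**Figure D4:**
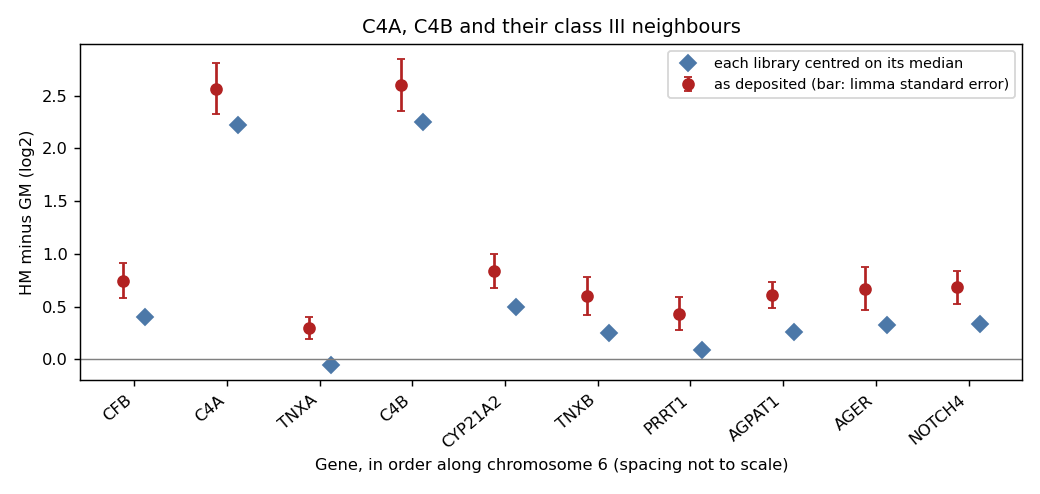
Log2 difference between HM and GM (y axis) of C4A, C4B and the 8 neighbours with values, in their order along chromosome 6 and not to scale, as deposited (circles, with the limma standard error) and after median centring (diamonds). The C4 genes stand above 2 on both scales, the neighbours stay under 1, and TNXA falls just below 0 after centring.

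The C4 genes are known to respond to interferon-γ, and several factors are known to bind their promoters. Of 30 interferon response genes on the list, 10 had values, and these 10 were higher in HM (limma), against 62.5% of all listed genes, with a median difference of 0.62 beside 0.56 for all listed genes and 2.57 for C4A. After median centring, 2 of the 10 passed, GBP2 and IDO1, against 31.4% of all listed genes. GBP2, an interferon-induced GTPase, had means of 8.47 ± 0.093 (SD, n = 2) in GM and 9.56 ± 0.18 (SD, n = 3) in HM, a difference of 1.09, and was highest in HM replicate 3. IDO1, an enzyme of tryptophan breakdown, had means of 5.11 ± 0.18 (SD, n = 2) and 6.03 ± 0.31 (SD, n = 3), a difference of 0.92, and was highest in HM replicate 1. The list does not cover every interferon-induced gene. Outside it, named after their values were seen, IFITM1 differed by 1.87, BST2 by 1.82 and IFI44L by 1.65. IFI6 at 0.74, MX2 at 0.60, IFI35 at 0.56 and DHX58 at 0.51, named in the same way, lay nearer the median of the 10. IFITM3 at 1.24, IFI16 at 1.17, IFITM2 at 1.05, IFI44 at 0.97 and EPSTI1 at 0.85, also named in this way, lay in between. These genes come from no fixed list, so how far that median stands for interferon-induced genes in general was not tested.

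Of 13 transcription factors listed as binding the C4 promoters or as acting on them in other cells, 5 had values, and all 5 were higher in HM (limma), as deposited and after median centring, against 62.5% and 31.4% of all listed genes. Their median difference was 0.97. CEBPD, a factor of the acute phase, had values of 8.43 and 8.57 in GM and of 10.45, 9.82 and 9.99 in HM, and rose by 1.59 (standard error 0.19, adjusted p = 0.000169, limma). NFIA rose by 1.37, NFIC by 0.97 and NFIX by 0.75, all members of the nuclear factor I family, and SP1, a general activator that binds GC boxes, rose by 0.68. Binding of these factors at C4A or C4B was not measured.

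C4 is also an acute phase protein. Of 17 other acute phase genes on the list, 1 had values, SERPINA3, which encodes α1-antichymotrypsin. It had values of 5.83 and 5.84 in GM and of 7.73, 7.03 and 7.25 in HM and rose by 1.50 (standard error 0.21, adjusted p = 0.000322, limma).

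A high value in HM replicate 1 was common among the listed genes. Of the 1707 genes with a higher mean in HM, 55.1% were highest in that library, as were 4 of the 8 higher complement genes and 6 of the 8 class III neighbours. The order of C4A and C4B within HM, with replicate 1 highest and replicate 2 lowest, was that of 18.3% of the 1707 genes, of 2 of the 8 higher complement genes, of 2 of the 8 class III neighbours and of 2 of the 5 promoter factors. The excess of C4A in HM replicate 1 over the lowest HM library was 0.95, and the median of all listed values in HM replicate 1 was also the highest of the 5 libraries, at 8.62. The part of this library in the C4 values was measured by leaving it out, which gave 2.28 for C4A and 2.31 for C4B.

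To find the genes whose course over the libraries was most like that of C4, each gene was centred on its mean over the 5 libraries, and the Euclidean distance to the mean profile of C4A and C4B was taken on the log2 scale. C4A and C4B were 0.039 apart. The nearest other gene was APOE, which encodes the lipid carrier apolipoprotein E, at a distance of 0.15. APOE had values of 10.27 and 10.23 in GM and of 13.39, 12.40 and 12.73 in HM, with HM replicate 1 highest and replicate 2 lowest within HM, as for C4A and C4B.

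HEY1, a transcriptional repressor downstream of Notch, followed at 0.26, MFAP4, a microfibril-associated protein, at 0.28, and KANK4, an ankyrin repeat protein, at 0.31. The next were COL14A1, a fibril-associated collagen, at 0.50 and IGFBP3, a carrier of insulin-like growth factors, at 0.55. PTGFR, the receptor for prostaglandin F2α, stood at 0.60, KCNE4, a potassium channel subunit, at 0.64, the prohormone convertase PCSK1 at 0.65 and the calcium sensor NCALD at 0.66. The median distance of all listed genes was 2.34. The size of the difference between the media dominates this measure, so genes with large increases are favoured.

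Over the 3 HM libraries alone, each gene centred on their mean, the order was another. IGFBP3 ranked 3, at 0.048, while APOE ranked 15, at 0.14, and PCSK1 ranked 704. The nearest gene was GAS7, at 0.031, followed by OASL, an interferon-induced gene, at 0.032, both of which were named after their values were seen. IFITM3 and IFITM2, named in the same way, ranked 7 and 8, at 0.079 and 0.085. GAS7 differed between the media by 1.28 and OASL by 0.80, or by 0.50 without HM replicate 1. Without HM replicate 1, 4 of the 10 nearest genes over all libraries remained among the 10 nearest.

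**Figure D5:**
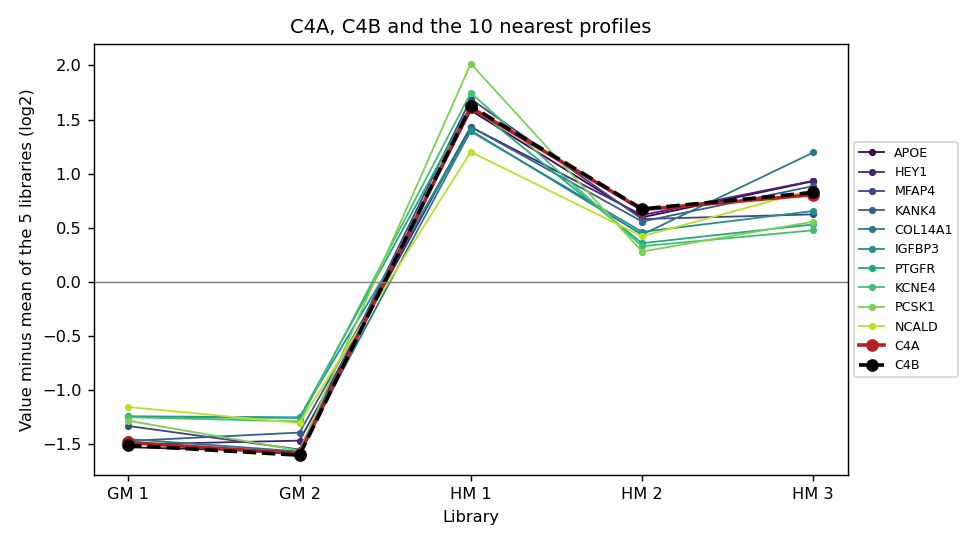
Log2 value minus the mean of the 5 libraries (y axis) of C4A, C4B and the 10 genes with the nearest profiles in each library (x axis), where lines only join the points of a gene. All 12 genes are highest in HM replicate 1, and C4A and C4B lie on top of each other, 0.039 apart.

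The identity of the cells and other possible sources of C4 RNA were examined with marker lists. Of 16 chondrocyte markers, 5 had values, SOX9, COL2A1, ACAN, COL9A2 and COL9A3, and all 5 were higher in HM (limma), against 62.5% of all listed genes, although SOX9 no longer passed after median centring or quantile normalization. Their summed level on the log2 scale was 12.06 and 12.03 in the GM libraries and 13.17, 12.95 and 12.80 in HM replicates 1, 2 and 3, and SOX9 had the highest mean. COL2A1, the main collagen of cartilage, rose by 1.53 (standard error 0.18).

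Of 8 hypertrophy markers, 2 had values. Their summed level was 7.73 and 7.82 in GM and 8.77, 8.44 and 8.70 in HM, with the higher mean in MMP13. PTH1R, the receptor for parathyroid hormone-related protein, rose by 1.06 (standard error 0.18), and MMP13, a collagenase, had a difference of 0.70 (standard error 0.21) that no longer passed after median centring. The other 6, RUNX2 and COL10A1 among them, were not analysed here.

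Of 12 hepatocyte markers, 0 had values. Because the list holds only genes that differ, a marker without values may be present at a similar level in both media. Of 10 macrophage markers, 2 had values, and their summed level was 8.25 and 8.47 in GM and 9.10, 9.53 and 9.11 in HM replicates 1, 2 and 3. CD14, which had the higher mean and which fibroblasts also express, rose by 1.24 (standard error 0.18). CSF1R, the receptor for macrophage colony-stimulating factor, fell by 0.51 (standard error 0.19, adjusted p = 0.0251 by limma). This difference lay between -0.35 and -0.66 when single libraries were left out and did not pass without GM replicate 1, GM replicate 2, HM replicate 1 or HM replicate 3. After median centring the CSF1R difference was -0.86, and after quantile normalization it was -0.62, and it passed under both (limma). CD14 and the summed level were highest in HM replicate 2, the library in which C4A and C4B were lowest within HM, whereas CSF1R was highest in GM replicate 2. PTPRC, CD68, CD163 and the other macrophage markers were not analysed here, and the part of other cells in the C4 levels was not tested.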

How the data were processed

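Total RNA of TC28a2 cells was sequenced from stranded libraries, 2 of GM and 3 of HM. The authors deposited 1 log2 value per gene and library, after alignment to hg19 with HISAT2, counting with StringTie and RLE normalization, as their methods state. The submitters' processing notes instead name TopHat2 2.0.13, Cuffdiff 2.2.1 and the rat build rn5. Of 2694 listed symbols, 2499 matched a human GENCODE symbol, current or older, and the methods were followed. Libraries were grouped by their labels. The methods call the study's replicates biological without describing the separate cultures, and p-values measure the spread between these libraries. HM was set against GM by limma 3.58.1 (R 4.3.3, lmFit, eBayes with trend, Benjamini-Hochberg over 2694 genes), tested on simulated data. Other steps used Python 3.11.15. The rule for named genes took C4A, C4B, the fixed-list genes with values and the 10 nearest profiles. Of these, 8 interferon response genes are given only in counts, and names outside the rule are marked. Members and lists were chosen with earlier results of these data known. Transcripts and coordinates are from the GENCODE annotation lifted to GRCh37. Alternatives were median centring, quantile normalization, a replicate block, each library left out, no trend, an adjusted p under 0.01, and a filter at the 25th percentile of the mean. Set tests were not run.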

Additional observations from a re-analysis of the deposited data

How the results depend on the processing

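The differences of C4A, C4B and both together kept their direction under median centring, quantile normalization, the replicate block and the loss of any single library, and moved by less than the SD of the HM libraries. With single libraries left out they lay between 2.28 and 2.75 for C4A, between 2.31 and 2.79 for C4B and between 2.29 and 2.77 for both together. Quantile normalization gave 2.31 for each of the 3. C4A stayed above C4B, with a mean gap between 0.11 and 0.13. The counts of 8 higher and 4 lower complement genes were the same under every alternative.

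With the replicate number as a block, the differences were 2.68 for C4A, 2.71 for C4B and 2.69 for both together, and no named gene lost its call. HM replicate 3 has no GM library of its number, so these differences equal those without HM replicate 3. The block fit leaves little to estimate the spread of each gene, so a call kept under it adds little. CSF1R, at -0.52 in both fits, passed under the block but not without HM replicate 3. No link between libraries is described beyond the replicate number. The deviations of replicates 1 and 2 in GM and in HM had a correlation of -0.025 across genes, which are not independent replicates. Whether libraries share a batch was not tested.

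The 8 higher class III neighbours became 2 after median centring (31.4% of all listed genes were higher), 6 after quantile normalization (46.7%), 4 at an adjusted p under 0.01 (49.9%), and 4 to 8 with single libraries left out (50.9% to 61.7%), and the cause was not tested. The filter at the 25th percentile gave 5 (66.8%), since it removes genes with low levels. TNXA reversed to -0.049 under median centring. Of the 10 nearest profiles, 4 to 9 were shared when single libraries were left out, a comparison chosen after seeing the data. With 1 GM library left, limma assumes that it varies like the HM libraries. The unknown depth, the selected gene list and the 2 GM libraries limit every value.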
